A study of Mus musculus with 2 samples.

Results

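The genes described are those of oxidative phosphorylation. They were chosen by symbol, as every gene whose name begins with mt-Nd, mt-Co, mt-Cytb, mt-Atp, Nduf, Cox4 to Cox8, Uqcr or Atp5, together with Sdha, Sdhb, Sdhc and Sdhd. The rule found 105 of the 27999 genes measured. Of these, 13 are encoded by the mitochondrial genome and 92 by the nucleus, and the nuclear members include 9 assembly or accessory factors and 8 isoforms known for restricted expression. Counts of unique molecular identifiers (UMIs, tags that mark single captured RNA molecules) were available from 2 droplet single-cell libraries of mouse bone marrow niche cells, with 1 library in each group. The LepR_tdT library held tdTomato+ cells and the EC library endothelial cells.

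Both groups carried the genotype LepR-Cre;LSL-tdTomato, in which Cre driven from the leptin receptor gene switches on the red reporter, so the endothelial library is not from reporter-free mice. Both came from strain C57Bl/6JCrl at 3-4 months of age. The protocol's sample numbers overlap, so which stains, gates and treatment each library received is uncertain. Whether a library came from 1 animal or a pool is not given in the sources used here. Cell type and library therefore cannot be told apart in a comparison between the libraries, and every interval below covers counting error only.

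Oxidative phosphorylation moves electrons from NADH and succinate through complexes I to IV of the inner mitochondrial membrane to oxygen, and complex V, the ATP synthase, uses the resulting proton gradient to make ATP. Complexes I, III, IV and V mix subunits made inside the mitochondrion with subunits imported from the cytosol, whereas complex II is wholly nuclear. The mitochondrial genes are transcribed as long precursors that are cut into individual RNAs, while each nuclear gene has its own promoter.

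Cells with at least 1000 UMIs were used, 3800 of 4536 in the EC library (median 3401.5 UMIs) and 3672 of 4250 in LepR_tdT (median 4652.5). Past this minimum, 21 cell barcodes occurred in both libraries, where independent draws would give 18.9. Clustering without the members and naming from marker genes gave 3272 stromal-like, 255 osteolineage-like, 61 endothelial-like, 33 fibroblast-like, 16 pericyte-like and 12 erythroid-like cells in LepR_tdT. In EC it gave 3406 sinusoidal-like, 312 arterial-like and 36 erythroid-like cells, and no EC cell fell in a stromal-like cluster. The 10 stromal markers, Lepr and Cxcl12 among them, summed to 49792 CPM (counts scaled to a class total of 1000000 UMIs) in stromal-like cells and 386.5 CPM in EC endothelial-like cells. The 10 endothelial markers, Cdh5 and Pecam1 among them, summed to 29.7 and 9424 CPM. The same lists named the classes, so these sums describe the labels and are no check of them. A cluster of 46 EC and 23 LepR_tdT cells led by Clec5a, Fcnb and Ctsg stayed unnamed.

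Promoters are shown for 4 nuclear members that differed between stromal-like and endothelial-like cells both between the libraries and inside LepR_tdT. Ndufa8, Ndufa6 and Atp5g3 were higher in endothelial-like cells and Cox6b2 was higher in stromal-like cells. Capitals mark GCGC followed by any base and then TGCGC, a motif of the kind bound by the transcription factor NRF1, searched on both strands. The sequences are RefSeq promoters on GRCm38.p6, 300 bases each and read 5′ to 3′ on the gene's strand: Ndufa8 at chr2:36049289-36049588 (minus), Ndufa6 at chr15:82354242-82354541 (minus), Atp5g3 at chr2:73911277-73911576 (minus) and Cox6b2 at chr7:4753045-4753344 (minus).
Ndufa8: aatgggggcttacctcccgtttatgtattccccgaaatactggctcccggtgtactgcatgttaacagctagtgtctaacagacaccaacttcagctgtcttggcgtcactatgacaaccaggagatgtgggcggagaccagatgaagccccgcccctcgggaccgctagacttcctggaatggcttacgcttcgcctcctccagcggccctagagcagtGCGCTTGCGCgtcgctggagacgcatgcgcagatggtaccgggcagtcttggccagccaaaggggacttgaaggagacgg
Ndufa6: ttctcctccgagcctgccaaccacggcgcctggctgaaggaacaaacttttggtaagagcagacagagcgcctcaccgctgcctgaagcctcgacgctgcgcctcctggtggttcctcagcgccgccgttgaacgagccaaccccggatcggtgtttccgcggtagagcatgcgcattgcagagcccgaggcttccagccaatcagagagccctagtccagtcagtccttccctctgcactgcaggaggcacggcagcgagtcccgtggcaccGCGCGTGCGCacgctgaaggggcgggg
Atp5g3: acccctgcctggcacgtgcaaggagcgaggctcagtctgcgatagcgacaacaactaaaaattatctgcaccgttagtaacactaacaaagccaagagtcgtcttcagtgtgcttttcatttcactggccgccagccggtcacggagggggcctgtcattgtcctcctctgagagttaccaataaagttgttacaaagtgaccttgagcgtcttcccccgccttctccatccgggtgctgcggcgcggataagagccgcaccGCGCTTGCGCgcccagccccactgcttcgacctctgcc
Cox6b2: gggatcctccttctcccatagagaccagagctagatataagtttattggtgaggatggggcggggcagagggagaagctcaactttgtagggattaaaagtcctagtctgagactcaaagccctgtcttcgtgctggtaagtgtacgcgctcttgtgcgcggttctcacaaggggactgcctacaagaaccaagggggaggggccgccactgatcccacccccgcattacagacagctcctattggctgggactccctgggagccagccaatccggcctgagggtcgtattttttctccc
The first 3 are printed because they hold the motif, 1 time each, and Cox6b2 as a member called the other way, in whose window it was not found. The choice is therefore no sign of a link between motif and direction: of the 7 such promoters of members higher in endothelial-like cells, those of Cox5a, Cox7a2l, Ndufc2 and Uqcrh did not hold it. RefSeq promoters matched 76 of the 92 nuclear members, 3 of them by another symbol. Of their 82 promoters, 20 held the motif (24.39%), against 4.603% of all 32851 promoters of the same length. Member promoters also had a higher median GC content, 58.0% against 52.7%, and the part of base composition in the motif share was not tested. The letters ACGTG, 1 form of the core recognised by hypoxia-inducible factors, stood on either strand in 22 of the member promoters (26.83%) and in 19.62% of all. Other forms of that core were not searched. A match is a stretch of letters and does not show that a factor binds there.

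Mitochondrial members took a smaller share of UMIs in stromal-like than in endothelial-like cells, while the nuclear members differed much less. The 13 mitochondrial members made up 2.36% of stromal-like UMIs and 3.98% of EC endothelial-like UMIs, a log2 ratio of -0.76 (95% counting interval -0.76 to -0.75). The 92 nuclear members made up 2.13% and 2.43%, a log2 ratio of -0.19 (-0.20 to -0.19). Inside the LepR_tdT library, where the 61 endothelial-like cells shared preparation and sequencing with the stromal-like cells, the mitochondrial share was 4.00% in endothelial-like cells and the log2 ratio again -0.76 (-0.80 to -0.73). The nuclear log2 ratio there was -0.17 (-0.21 to -0.13). These comparisons share the stromal-like cells. The 10 stromal markers summed to 1923 CPM in the 61 endothelial-like cells of LepR_tdT, against 386.5 CPM in those of EC. Their part in the ratios was not tested. Endothelial-like cells of the 2 libraries differed by a log2 of 0.01 (-0.02 to 0.04) for the mitochondrial and -0.02 (-0.06 to 0.02) for the nuclear sum, a comparison added after the values had been seen.

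**Figure D1:**
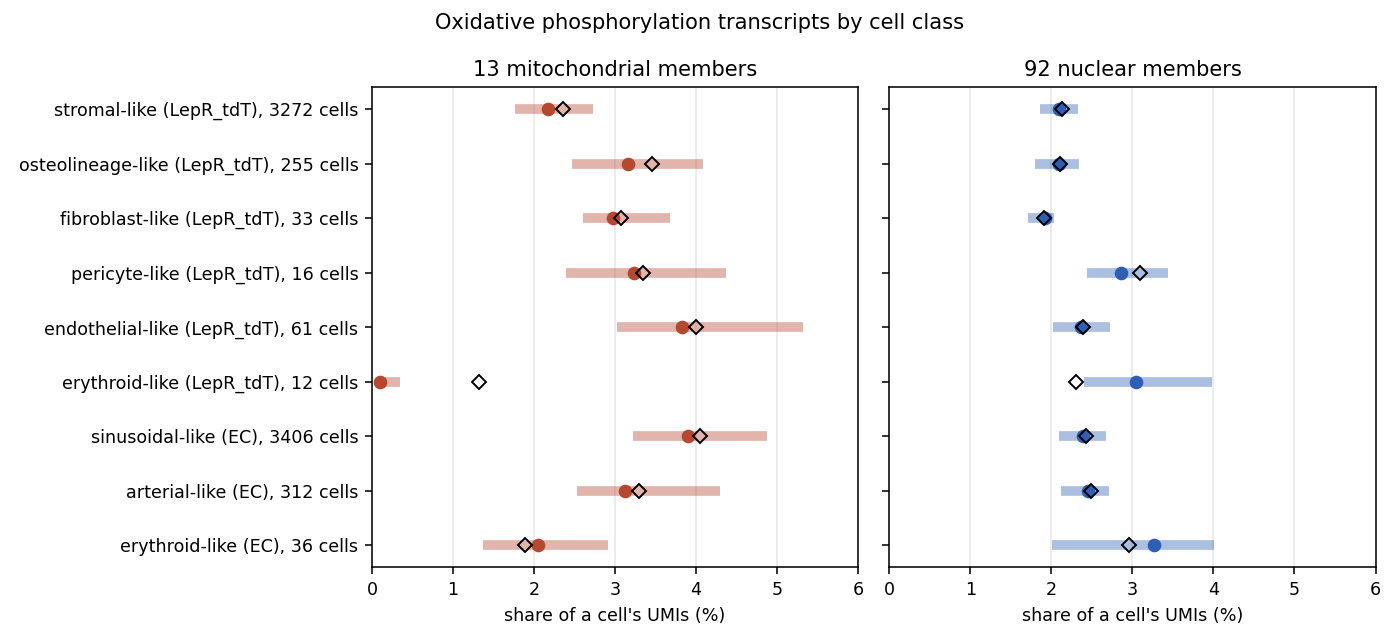
Share of UMIs held by the 13 mitochondrial members (left) and the 92 nuclear members (right) in each cell class. Dots are medians over cells, bars run from the lower to the upper quartile of cells, and diamonds are the share of all UMIs summed over the class; stromal-like cells had a median mitochondrial share of 2.17% and sinusoidal-like cells 3.90%.

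The other classes spread the mitochondrial share more widely than the nuclear share, as the plot of shares by class shows. Osteolineage-like cells held 3.46% mitochondrial and 2.11% nuclear, and fibroblast-like cells 3.07% and 1.91%. Pericyte-like cells held 3.35% mitochondrial and 3.10% nuclear (2.97 to 3.23), the highest summed nuclear share of the named classes, from 16 cells whose median was 2.86%. Erythroid-like cells had the lowest summed mitochondrial shares of the named classes, 1.89% in EC and 1.32% in LepR_tdT, beside nuclear shares of 2.96% and 2.30%. Their median nuclear shares, 3.26% in EC and 3.05% in LepR_tdT, lay above the pericyte-like median. In the 12 erythroid-like LepR_tdT cells the median cell held 0.105% mitochondrial UMIs, far under the class sum. Among stromal-like cells, a cluster of 44 cells with a low median depth of 1673 UMIs stood apart: its median cell held 0.0708% mitochondrial UMIs beside 2.50% nuclear.

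The mitochondrial share was highest in the shallowest cells of the stromal-like, osteolineage-like, sinusoidal-like and arterial-like classes. In stromal-like cells its median was 4.99% in cells of 1000 to 2000 UMIs, 2.10% at 2000 to 4000, 2.16% at 4000 to 8000 and 2.25% from 8000 UMIs. In sinusoidal-like cells it was 6.33%, 3.97% and 3.48% over the first 3 of these ranges, and in arterial-like cells 5.42%, 3.14% and 2.86%. Osteolineage-like cells went from 9.51% to 3.73%, 3.03% and 2.90%. The nuclear share of stromal-like cells was lowest in the shallowest range, at 1.51%, then 1.95%, 2.14% and 2.21%, so above 2000 UMIs both medians were slightly higher in deeper cells. The order of stromal-like below arterial-like below sinusoidal-like held in each of the 3 ranges they share.

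**Figure D2:**
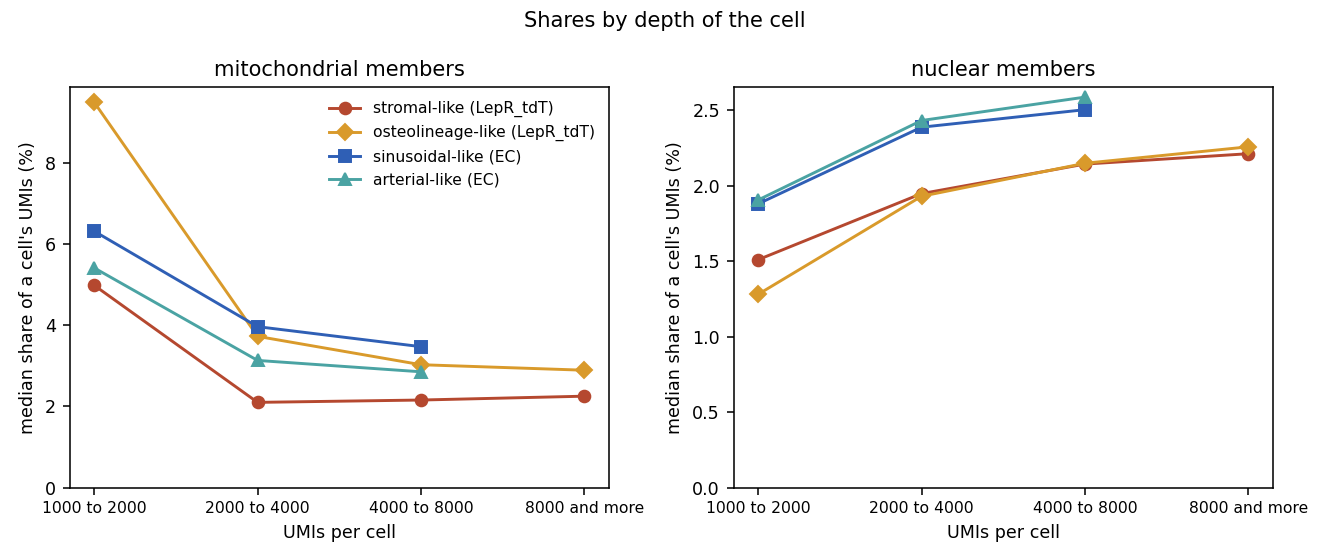
Median share of a cell's UMIs held by the mitochondrial (left) and nuclear (right) members against the depth of the cell, for 4 classes. The mitochondrial medians of the shallowest cells lie highest in every class drawn, at 4.99% for stromal-like and 9.51% for osteolineage-like cells.

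By gene, 12 of the 13 mitochondrial members were at least 1.5-fold higher in EC endothelial-like cells with a counting interval that left out equality, the call used throughout for genes with at least 20 UMIs in the classes compared. None was higher in stromal-like cells. Over all 12945 genes measured, 24.3% were called in the same direction and 30.4% in the opposite one. Inside LepR_tdT, 10 of 13 were called higher in endothelial-like cells, beside a background of 10.6% of 11859 genes in that direction and 11.3% in the other. mt-Co1, the catalytic subunit of complex IV, stood at 2962 CPM in stromal-like, 6677 CPM in EC endothelial-like and 6436 CPM in LepR_tdT endothelial-like cells. Its log2 ratio was -1.17 (-1.19 to -1.16) between and -1.12 (-1.20 to -1.04) within libraries. Both endothelial-like groups thus lay above the stromal-like cells at similar levels.

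mt-Co2 and mt-Co3, the other mitochondrial complex IV subunits, had within-library log2 ratios of -0.78 and -0.74. mt-Atp6, part of the proton channel of the ATP synthase, had 5585, 9049 and 9918 CPM in the same order of classes. Of the complex I membrane subunits, mt-Nd2 had a within-library ratio of -1.05, mt-Nd5 of -0.84, mt-Nd1 of -0.73 and mt-Nd4 of -0.65. mt-Cytb, the only mitochondrial subunit of complex III, differed least and was not called: 3192 CPM in stromal-like, 3764 CPM in EC endothelial-like and 3672 CPM in LepR_tdT endothelial-like cells, with log2 ratios of -0.24 and -0.20.

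The 3 mitochondrial members of shortest annotated length, mt-Atp8, mt-Nd4l and mt-Nd3, had ratios further from 0 between the libraries than within LepR_tdT. mt-Nd4l, a complex I subunit, stood at 37.2 CPM in stromal-like cells, 241.3 CPM in EC endothelial-like cells and 46.2 CPM (9 UMIs) in LepR_tdT endothelial-like cells. Its log2 ratio was -2.70 between and -0.31 (-1.25 to 0.82) within libraries, and the 2 endothelial-like groups differed by -2.39 (-3.52 to -1.46). mt-Nd3 and mt-Atp8 also differed between the endothelial-like groups, by -1.35 and -1.20, and so did the nuclear members Ndufa3 (-1.33), Atp5k (-0.87) and Ndufa1 (-0.62). These 6 have annotated lengths of 204 to 433 nucleotides. A length here is the median over a gene's annotated protein-coding transcripts, which need not be that of its main transcript. Among the 25 shortest measured members with a ratio (204 to 556 nucleotides), 6 were called lower in LepR_tdT and 0 higher, with a median log2 of -0.26. Cox6b2 and Cox7a1, also of such length, had 0 UMIs in LepR_tdT endothelial-like cells and were left out. Among the 25 longest (1082 to 2675 nucleotides), 0 were called lower and 1 higher, with a median of 0.03. In this comparison 1.97% of 11138 genes were called higher in EC and 2.29% higher in LepR_tdT. The tally was made after the 6 members had been seen and the 25 shortest hold all of them, so it describes the same values again. Ndufa6 (382 nucleotides, 0.12) and Atp5e (421 nucleotides, -0.30) were of similar length and not called. The part of transcript length was not tested, and the 6 members stand in the counts of 12 mitochondrial and 14 nuclear members called between libraries. mt-Atp8 also shares 43 nucleotides with mt-Atp6, and mt-Nd4l 7 with mt-Nd4, so reads there cannot be assigned with certainty. Overlapping members may lie on 1 RNA, so their annotated length need not be that of the molecule. The partners mt-Atp6 (0.13) and mt-Nd4 (0.01) were not called between the endothelial-like groups.

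**Figure D3:**
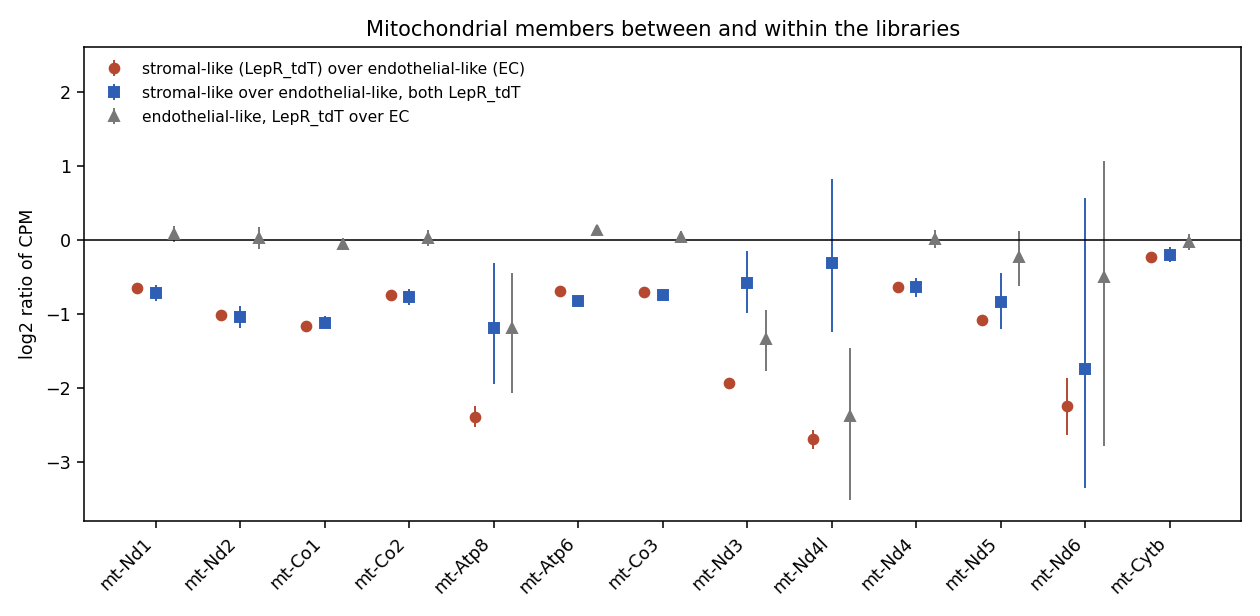
Log2 ratio of CPM for each mitochondrial member, in genome order: stromal-like over EC endothelial-like (circles), stromal-like over endothelial-like inside LepR_tdT (squares) and endothelial-like LepR_tdT over EC (triangles); bars are 95% counting intervals. mt-Co1 is at -1.17 and -1.12 in the first and second, whereas mt-Nd4l moves from -2.70 to -0.31.

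Of the 92 nuclear members, 88 were measured between stromal-like and EC endothelial-like cells. Of these, 7 were called higher in stromal-like cells, 14 higher in endothelial-like cells and 67 neither. Both counts are a smaller part of the members than the 30.4% and 24.3% of all genes. The members' median log2 ratio was 0.00, and that of all genes 0.11. The 4 members not measured between these classes were Cox6a2, Cox7b2, Cox8b and Cox8c, isoforms known from muscle, fat or testis. Outside them, Cox6a2 had 29 UMIs (61.0 CPM) in the EC cells of the unnamed cluster led by Clec5a, Fcnb and Ctsg. It had 0 UMIs in the LepR_tdT cells of that cluster.

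By complex, the nuclear sums leaned most towards endothelial-like cells in complex III (log2 -0.47) and complex IV (-0.32), and less in complex I (-0.11) and complex V (-0.10). Complex II, which has no mitochondrial subunit, had a sum of 0.12 (0.07 to 0.17) between libraries and -0.16 (-0.44 to 0.13) within LepR_tdT. Of its 4 subunits none was called between libraries, and 1 within LepR_tdT, Sdhc, a membrane anchor, at 84.0 CPM in stromal-like against 138.5 CPM in endothelial-like cells. The mitochondrial subunits of the same complexes had between-library sums of -0.83 (I), -0.24 (III), -0.88 (IV) and -0.71 (V).

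Inside LepR_tdT, 11 of 88 measured nuclear members were called higher in endothelial-like and 7 higher in stromal-like cells, shares close to the 10.6% and 11.3% of all genes, so the counts are no result about the members. Called higher in endothelial-like cells in both comparisons were Atp5g3, Cox5a, Cox7a2l, Ndufa6, Ndufa8, Ndufc2, Uqcrh and Uqcrq, and inside LepR_tdT alone Sdhc, Cox4i1 and Ndufs8. Since both comparisons use the same stromal-like cells, the repeat is not independent support. Ndufc2, an accessory subunit of complex I (chromosome 7, 97400003 to 97407802, plus strand, GRCm38), had 284.5 CPM in stromal-like cells, 697.2 CPM in EC endothelial-like and 712.8 CPM in LepR_tdT endothelial-like cells. Its log2 ratios were -1.29 (-1.35 to -1.24) and -1.33 (-1.57 to -1.07). Cox7a2l, a factor that helps join complexes III and IV into supercomplexes, had 231.4, 425.2 and 425.6 CPM in the same order. Cox5a, a structural subunit of complex IV, had 190.8, 300.1 and 410.2 CPM. Ndufa8, whose promoter is shown above, had 144.4, 266.9 and 282.0 CPM. These members were taken from those called in both comparisons, so their shared direction was fixed by the choice.

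Called higher in stromal-like cells in both comparisons were Ndufa4l2, Cox4i2 and Cox6b2, restricted isoforms of complex IV, each with 0 UMIs in the LepR_tdT endothelial-like cells. Inside LepR_tdT alone, the core complex I subunits Ndufs1 and Ndufs3, the complex III core protein Uqcrc1 and Atp5g1, a gene of the ATP synthase c-ring, were called, with log2 ratios of 1.56 (from 3 UMIs in endothelial-like cells), 0.71, 0.79 and 0.69. Between libraries alone, Ndufaf1, Ndufaf5, Ndufaf7 and Ndufs4 were called. Ndufaf7, a complex I assembly factor, stood at 30.6 CPM in stromal-like, 14.7 CPM in EC endothelial-like and 51.3 CPM (10 UMIs) in LepR_tdT endothelial-like cells. Ndufs4, a complex I accessory subunit, stood at 236.2, 132.2 and 241.0 CPM. For both, the LepR_tdT endothelial-like cells lay nearer to the stromal-like cells of their own library than to the EC cells. The same endothelial-like cells held stromal markers at 1923 CPM, whose part was not tested.

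**Figure D4:**
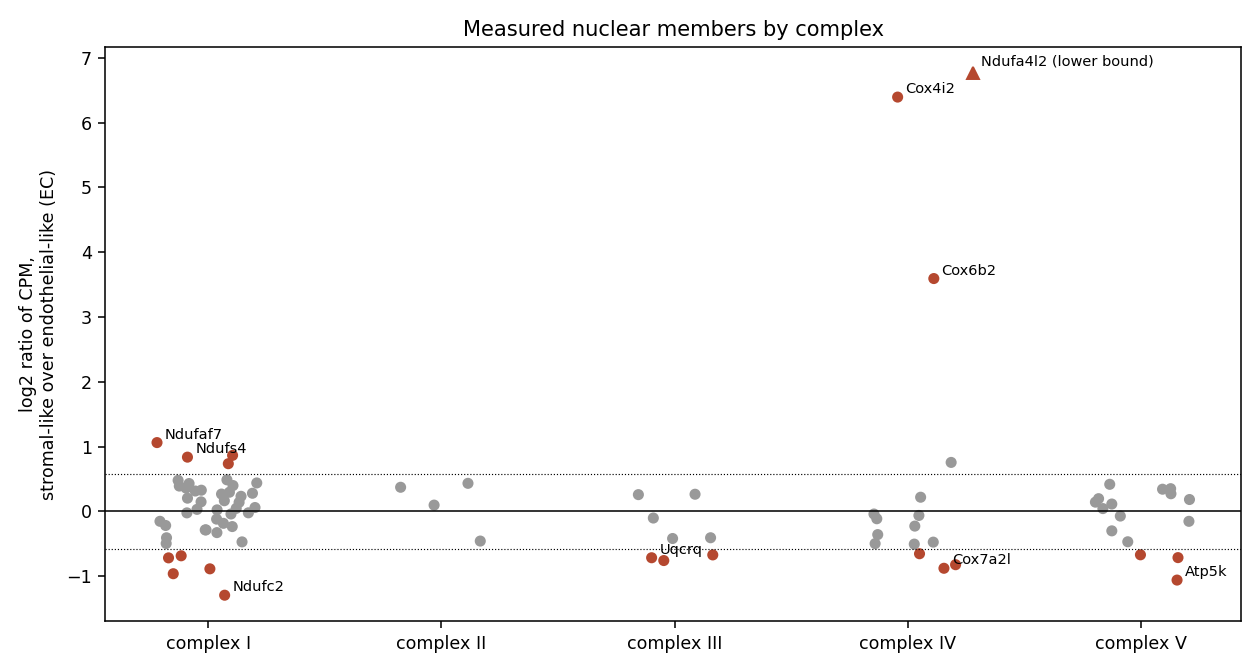
Log2 ratio of CPM, stromal-like (LepR_tdT) over endothelial-like (EC), for the measured nuclear members grouped by complex; red points passed the 1.5-fold call, dotted lines mark 1.5-fold, and the triangle is a lower bound. Most points lie between the dotted lines, and the 3 far above them are Ndufa4l2, Cox4i2 (6.39) and Cox6b2 (3.59).

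The 3 isoforms had different class patterns. Ndufa4l2 (chromosome 10, 127514967 to 127517154, plus strand), a hypoxia-inducible paralogue of the complex IV subunit Ndufa4, reached 1319 CPM (1063 to 1617; 92 UMIs in 16 cells) in pericyte-like cells. It stood at 25.1 CPM in stromal-like, 23.5 CPM in osteolineage-like and 48.2 CPM (8 UMIs) in fibroblast-like cells. In the pericyte-like cells the 10 endothelial markers summed to 515.9 CPM with 6 of them at 0, and their part was not tested. EC endothelial-like cells held 0 UMIs in 3718 cells, where 3 UMIs would be 0.232 CPM, so stromal-like cells were at least 108-fold higher. The 61 LepR_tdT endothelial-like cells also held 0, which gives a bound of only at least 1.63-fold. Free RNA, from barcodes outside the cell table, held 29.9 CPM in LepR_tdT and 6.52 CPM in EC. The stromal-like level was thus not above that of the free RNA of its library, although by its marker genes free RNA would bring 12.5 of the 394 UMIs counted there, or 3.16 by the lowest single marker.

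Within the stromal-like cells, Ndufa4l2 was detected in 20.3% of the 320 cells of the cluster led by Cxcl5, Fndc1 and Kit and in 6.58% of the 1870 cells of the largest cluster. The levels were 45.6 and 17.5 CPM and the median depths 5653.5 and 4412.5 UMIs. Ndufa4 itself, the widespread paralogue, stood at 688.8 CPM in stromal-like and 719.2 CPM in EC endothelial-like cells, a log2 ratio of -0.06.

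Cox4i2 (chromosome 2, 152754173 to 152765037, plus strand), an isoform of the regulatory subunit 4 known from lung and for its part in oxygen sensing, was also highest in pericyte-like cells, at 730.9 CPM (544.2 to 961.0; 51 UMIs). It was detected in 14 of 16 of these cells (87.5%), as was Ndufa4l2. All 16 cells came from the LepR_tdT library, so the percentage describes these cells only. Stromal-like cells held 39.0 CPM and EC endothelial-like cells 0.463 CPM (6 UMIs), an 84.1-fold difference (38.4 to 230.2). Free RNA held 37.4 CPM in LepR_tdT, again close to the stromal-like level. The widespread Cox4i1 stood at 836.7 CPM in stromal-like and 1187 CPM in EC endothelial-like cells.

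Cox6b2 (chromosome 7, 4751792 to 4753094, minus strand), known as a testis isoform, followed another order. It was highest in erythroid-like cells, at 200.7 CPM (55 UMIs) in EC and 269.3 CPM (13 UMIs) in LepR_tdT. In the unnamed cluster high in granulocyte markers and led by Clec5a, Fcnb and Ctsg, it stood at 75.7 and 44.0 CPM. Stromal-like cells held 33.5 CPM and EC endothelial-like cells 2.78 CPM, a log2 ratio of 3.59 (3.11 to 4.12). Free RNA of LepR_tdT held 24.2 CPM, below the stromal-like interval of 30.7 to 36.5. Cox7a1, a heart and skeletal muscle isoform, had 43 UMIs in stromal-like and 21 in EC endothelial-like cells and was not called.

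**Figure D5:**
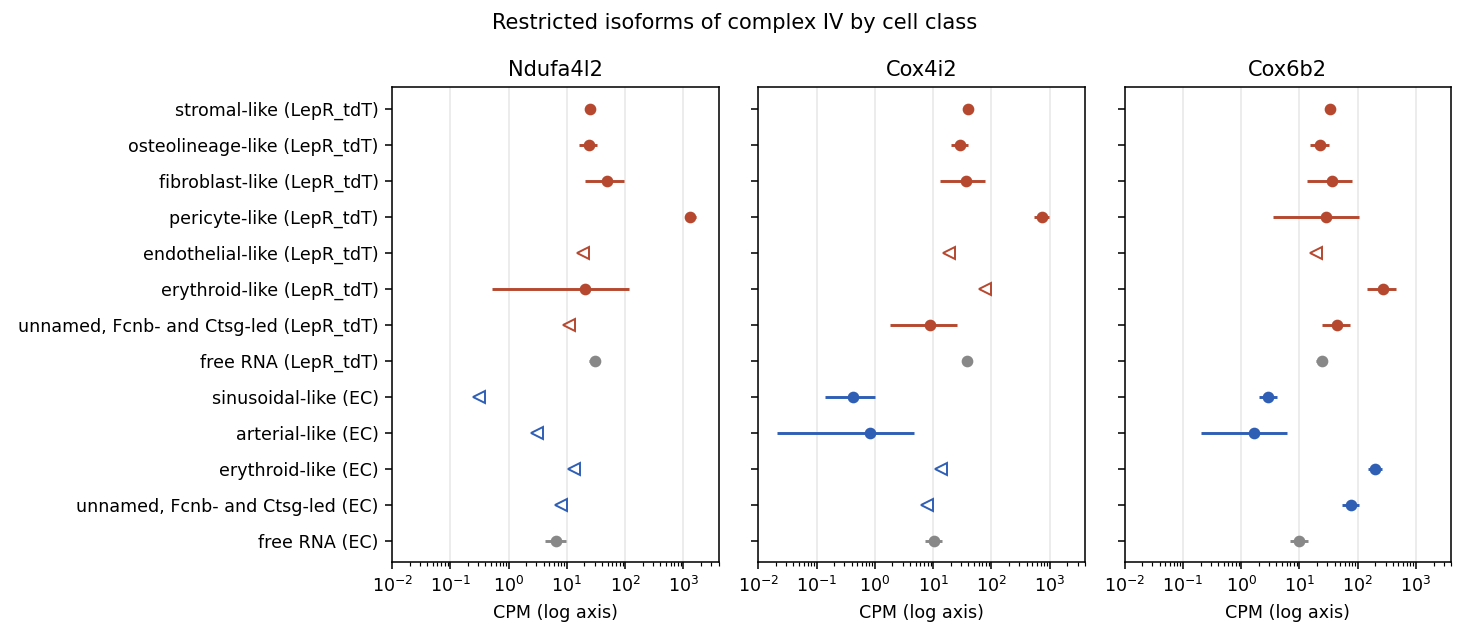
CPM of Ndufa4l2, Cox4i2 and Cox6b2 by cell class on a log axis, LepR_tdT in red, EC in blue and free RNA in grey; bars are 95% Poisson intervals, and open triangles mark the upper limit where 0 UMIs were counted. Ndufa4l2 and Cox4i2 peak in pericyte-like cells at 1319 and 730.9 CPM, Cox6b2 in erythroid-like cells.

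Arterial-like and sinusoidal-like cells, both of the EC library, differed in the mitochondrial sum, while the number of nuclear members called depended on the processing. The mitochondrial sum was 3.29% in the arterial-like class against 4.05%, a log2 ratio of -0.30 (-0.31 to -0.28). All 13 ratios lay below 0, from -0.13 for mt-Cytb to -0.85 for mt-Nd6, but only mt-Nd6 (15 and 267 UMIs) passed the call. Among 86 measured nuclear members, 2 were called higher in arterial-like cells (Ndufaf7 and Ndufaf6, complex I assembly factors) and 1 higher in sinusoidal-like cells (Atp5s). In all genes these shares were 11.6% and 5.79% of 11115. The count higher in arterial-like cells became 16 with free RNA subtracted by the summed markers, 6 at doubled clustering resolution, 4 with cells thinned to 1000 UMIs and 1 with TMM scaling, and was 2 with free RNA by the lowest single marker. The shares of all genes under these settings were not computed. Doubled resolution also changed the cells compared: the arterial-like class held 157 instead of 312 EC cells, and a cluster of 412 EC cells was left unnamed. The nuclear sum was 2.49% against 2.42%, a log2 of 0.04 that became -0.14 with TMM scaling, so its direction is not settled. Of the sinusoidal-like cells, 1391 formed a cluster led by the early response genes Apold1, Rasd1 and Atf3. It held 3.70% mitochondrial, against 4.35% in the other 2015, and without it the arterial-like log2 ratio was -0.40.

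Osteolineage-like cells, of the same library as the stromal-like cells, were higher in the mitochondrial members and near equal in the nuclear ones. The mitochondrial sum differed by a log2 of 0.56 (0.54 to 0.57), with 13 of 13 ratios above 0. mt-Co3 (0.65), mt-Co1 (0.63), mt-Nd3 (0.61) and mt-Atp8 (0.70) passed the call, beside 7.08% of 11914 genes. The nuclear sum differed by -0.01 (-0.03 to 0.01). Of 88 measured nuclear members, 0 were called higher in osteolineage-like cells and 2 higher in stromal-like cells, against 10.1% of all genes. These were Ndufa4, at 451.9 against 688.8 CPM, and Ndufaf1, a complex I assembly factor, at 12 against 307 UMIs. The UMIs of Ndufaf1 are not scaled to the class totals, and the classes hold 255 and 3272 cells. The 9 erythroid markers summed to 2978 CPM in osteolineage-like cells against 532.1 CPM in the stromal-like class, and their part in these ratios was not tested.

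Related pathways were read from listed genes outside the rule, against the same 30.4% and 24.3% of all genes. Of 10 measured genes of uncoupling and antioxidant defence, 5 were called higher in stromal-like cells and 1 in EC endothelial-like cells. Prdx5, a peroxidase, had 547.3 against 137.5 CPM, Slc25a4, the ADP/ATP carrier, 677.9 against 235.5 CPM, and Sod2, the mitochondrial superoxide dismutase, 192.9 against 89.8 CPM. Ucp2, an inner membrane carrier, was the member higher in endothelial-like cells, at 73.2 against 1.59 CPM. Inside LepR_tdT the log2 ratios were 1.45 for Prdx5, 1.62 for Slc25a4 and -5.27 for Ucp2.

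Of 18 measured glycolysis genes, 5 were called towards the stromal-like class and 8 towards the endothelial-like class. Slc16a1, a lactate and pyruvate transporter, had 94.2 CPM in EC endothelial-like cells against 3.06 CPM in stromal-like cells, and Pkm, a pyruvate kinase gene, 503.0 against 120.8 CPM. Hk2, a hexokinase, was higher in stromal-like cells, at 19.9 against 3.47 CPM. Of 12 citrate cycle genes, 3 (Suclg1, Idh3a and Mdh2) were called towards the stromal-like class and 0 the other way. Of 9 measured hypoxia response genes, 4 were called in each direction, Bnip3 and Vegfa towards stromal-like and Pdk1 and Egln3 towards endothelial-like cells.

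Genes that maintain and express the mitochondrial genome had few UMIs in LepR_tdT endothelial-like cells, and their summed ratios differed in sign between and within the libraries. Of 10 measured, 0 were called higher in stromal-like cells and 3 higher in EC endothelial-like cells: Lrpprc and Slirp, partners in stabilising mitochondrial mRNA, and Mterf1a. Lrpprc had 8.08 against 15.0 CPM and Slirp 91.4 against 147.7 CPM. Inside LepR_tdT 0 of 10 were called in either direction, beside 11.3% and 10.6% of all genes. With 10 genes, neither these counts nor those between libraries are a result about the list. The summed log2 ratio inside LepR_tdT was 0.65 (0.13 to 1.22) against -0.30 between libraries. It rests on 0.0154% of the UMIs of the endothelial-like cells, with 0 UMIs of Tfb1m and Mterf1a and 1 of Polrmt. Of 8 measured biogenesis regulators, 2 were called towards the stromal-like class and 3 the other way. Pparg, a nuclear receptor, had 64.7 CPM in stromal-like cells against 304.1 CPM in EC endothelial-like cells.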

How the data were processed

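UMI counts per gene and barcode were deposited by the authors as raw, unnormalized whole numbers with a table of the cells of each library. Cell Ranger 2.1.1, Seurat 2.3.4 and the build mm10 are named per the submitters' processing notes, without roles. Totals were 18152304 (EC) and 21983361 (LepR_tdT) UMIs.

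The members and lists were chosen with earlier results of these data known. Cells with at least 1000 UMIs (7472) were clustered on 1406 variable genes that excluded members, mitochondrial genes, tdTomato and listed pathway genes (scanpy 1.11.5, 30 components, 15 neighbours, Leiden resolution 0.5, best of 10 seeds). Classes were named from at least 3 markers. UMIs were summed per class and given as CPM with exact Poisson 95% intervals, and ratios with conditional exact binomial intervals. With 1 library per group no test across samples was possible, and a call is a fold of at least 1.5 whose interval leaves out equality, for genes with at least 20 UMIs in both classes together. Classes under 3 UMIs were set to that floor, per class, in medians. The calculation was tested on simulated data. Scrublet's automatic threshold called 0 EC and 3 LepR_tdT cells and was judged not to have worked, so doublets were kept. Coordinates and lengths are from GENCODE on GRCm38, which held all 105 members. Genes were named in full for the mitochondrial members, core subunits and isoforms, and otherwise by the 5 highest and 5 lowest ratios at 20 CPM or more. Ndufaf1, Ndufaf6 and Atp5s were named because few members were called. Ndufs4, Ndufaf7 and the short members set beside them were compared between the endothelial-like groups after their values were seen.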

Additional observations from a re-analysis of the deposited data

Results flagged for a closer look

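Mitochondrial members had high shares in shallow cells of the table, which the comparisons did not use. Cells of the table with fewer than 1000 UMIs held 13.5% of their UMIs in the 13 members in EC (736 cells) and 11.9% in LepR_tdT (578 cells). Barcodes outside the cell table with at most 100 UMIs, taken as free RNA, held 3.66% in EC and 2.92% in LepR_tdT. Both free RNA shares lie between the 2.36% of stromal-like and the 3.98% of EC endothelial-like cells. No control samples exist for these values, which lie above the 3 UMIs that a count of 0 allows.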

How the results depend on the processing

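No paired analysis was possible because each group is 1 library. Of 2091 values of single genes under all alternatives, 1811 stayed within their counting interval, 280 moved and 0 called values changed sign. In the sentences that follow, sums are log2 ratios and counts are nuclear members called. For the stromal-like against EC endothelial-like mitochondrial sum (-0.76), the alternatives gave -0.78 without mitochondrial genes in the denominator, -0.73 with at least 2000 UMIs per cell, -0.79 with cells thinned to 1000 UMIs, -0.77 at the doubled clustering resolution and -0.84 with TMM scaling. For the nuclear sum (-0.19) they gave -0.22 with that denominator, -0.21 with at least 2000 UMIs and -0.27 with TMM. Inside LepR_tdT, TMM gave -0.68 (mitochondrial) and -0.091 (nuclear). For arterial-like against sinusoidal-like cells the mitochondrial sum was -0.25 thinned, -0.44 at doubled resolution and -0.47 with TMM, which shifts the ratios of that comparison by 0.17. The nuclear sum was 0.017 at doubled resolution and -0.14 with TMM. For osteolineage-like against stromal-like cells the mitochondrial sum was 0.57 with that denominator, 0.51 with at least 2000 UMIs, 0.76 thinned, 0.54 at doubled resolution and 0.59 with TMM, and the nuclear sum -0.030 thinned and 0.020 with TMM.

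Counts higher in arterial-like cells were 1 with at least 2000 UMIs, 4 thinned, 6 at doubled resolution (2 for sinusoidal-like) and 1 with TMM. Doubled resolution gave 1 higher in osteolineage-like and 1 in stromal-like cells, and TMM 1 in stromal-like cells. At that resolution the classes hold other cells. The arterial-like class had 157 instead of 312 EC cells. The osteolineage-like class had 179 instead of 255 cells, and 91 LepR_tdT cells marked by Col2a1 and Comp were left unnamed. Without assembly factors, 4 were higher in stromal-like than in EC endothelial-like cells, 0 differed between arterial-like (0 higher) and sinusoidal-like cells, and 1 was higher in stromal-like than osteolineage-like cells. At a fold of at least 2 the counts were 4 in stromal-like and 2 in EC endothelial-like, 1 in arterial-like and 1 in stromal-like against osteolineage-like cells, where all genes gave 21.4%, 17.3%, 5.7% and 6.04%.

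The free RNA alternative depends on how the free share is estimated. From 8 summed stromal markers, Cxcl12 and Kitl left out, the share came to 47.3% in EC endothelial-like, 49.1% in sinusoidal-like and 29.3% in arterial-like cells. Subtraction then gave -0.81 and -0.10 for the stromal-like against endothelial-like sums, with 19 members higher in stromal-like cells, and -0.46 and 0.12 for the arterial-like sums, with 16 members called towards arterial-like cells, 2 the other way. At 47.3%, free RNA would bring 40.0 UMIs of Ndufa4l2 into the EC endothelial-like cells, which held 0. After these values had been seen, the share was also taken from the single marker lowest against free RNA. That came to 1.62% (Adipoq) in EC endothelial-like cells and 0.672% (Esam) in stromal-like cells, and no sum or count moved. The lowest of several markers leans low and left osteolineage-like cells uncorrected, so the counts of nuclear members depend on an unsettled share.

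Other settings added after seeing the data were these. Leaving out the highest Scrublet scores, used because the planned removal of called doublets would have taken 3 cells, gave an arterial-like mitochondrial sum of -0.31 and 1 member higher in arterial-like cells. Without the cluster led by Apold1, Rasd1 and Atf3, the mitochondrial and nuclear sums were -0.83 and -0.22 between libraries, -0.88 and -0.22 inside LepR_tdT, and -0.40 and 0.010 for arterial-like cells. With cells of 2000 to 8000 UMIs only, they were -0.73 and -0.21 between libraries, and osteolineage-like cells gave 0.58 with 5 members higher in stromal-like cells. Why each value moved was not tested. Depth limits the small LepR_tdT classes, where 3 UMIs are 15.4 CPM in endothelial-like, 18.1 in fibroblast-like, 43.0 in pericyte-like and 62.2 in erythroid-like cells.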

Other observations

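The mitochondrial and nuclear shares were compared across cells of a class thinned to 1000 UMIs. Spearman's rho was -0.06 in 3272 stromal-like, -0.13 in 3406 sinusoidal-like, -0.30 in 312 arterial-like and -0.18 in 255 osteolineage-like cells. In LepR_tdT it was -0.31 in 33 fibroblast-like, -0.14 in 61 endothelial-like, 0.25 in 16 pericyte-like and 0.10 in 12 erythroid-like cells. In 36 erythroid-like EC cells it was 0.11. The median thinned nuclear share of stromal-like cells was 2.1%. At so few UMIs per cell counting noise pulls rho towards 0, so the strength of a relation cannot be read from it. These points come from 1 library each and both shares are parts of the same total, so they are given as a description.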
